A study of Mus musculus with 3 samples.

Results

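The genes described here are the mouse cytosolic ribosomal protein genes, chosen by symbol alone. Every gene row whose symbol was Rpl or Rps followed by a digit, or was Rplp0, Rplp1, Rplp2 or Rpsa, was taken. Pseudogene rows ending in -ps, the S6 kinases and 8 named relatives (Rps19bp1, Rpl7l1, Rpl22l1, Rpl39l, Rpl3l, Rpl10l, Rps4l and Rps27l) were left out. This gave 80 of 41605 gene rows, 48 for the large and 32 for the small ribosomal subunit. In GENCODE release M21, 79 of them were annotated as protein coding and 1, Rpl37rt, as a transcribed processed pseudogene.

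The cells were live endothelial cells of gastrocnemius muscle from C57BL/6N mice, sorted as CD31+, CD45- and SYTOX blue-, and counted with the 10x Chromium 3′ kit, version 2. There were 3 libraries, 1 per group. The running library came from mice housed singly with a wheel for 14 days of voluntary running, the sedentary library from mice housed singly without a wheel, and the untreated library from mice labelled as having no treatment, whose housing was not given. Age, sex, the number of animals per library and any batch were not given either, so batch and group cannot be told apart. With 1 library per group, no test was made between groups, and every interval on a library value covers counting error only.

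After filtering, 3212 running, 4015 sedentary and 4325 untreated cells were kept, with a median of 1532, 1135 and 1586 UMIs per cell. A UMI, or unique molecular identifier, marks 1 captured mRNA molecule. The libraries shared few cell barcodes, 23 between running and sedentary, 20 between running and untreated and 32 between sedentary and untreated. Cells were clustered with all 80 ribosomal protein genes left out of the matrix, and the clusters were named from marker genes as artery-like, vein-like, capillary-like, lymphatic-like, pericyte-like or erythrocyte-like. Clusters that passed no naming limit held 45 running, 47 sedentary and 68 untreated cells.

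Ribosomal proteins surround the ribosomal RNAs and form, with them, the machine that makes every cytosolic protein. Their mRNAs are among the most abundant in most cells and are short and stable, and they start with a run of pyrimidines, the 5′ terminal oligopyrimidine (TOP) motif, through which growth signals by way of mTOR and LARP1 set how well they are translated. Because a ribosome needs nearly all of these proteins in equal number, the genes are usually expressed together. mRNA counts, as here, do not measure translation.

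Start-site windows are shown for some of the genes with large differences in the vessel comparison below and for those with the longest runs. RefSeq start sites (GRCm38.p6) were matched for 60 of the 80 genes, with 70 windows of 30 bases, 15 before and 15 from the annotated start, read on the transcribed strand. A run of at least 8 C or T letters in any order stood in 26 of the 70 windows (37.1%), against 3943 of 32851 windows over all promoters in the table (12.0%). In the lines below, capitals mark the longest C or T run of each window, and the windows are chr2:26910792-26910821 (plus strand), chr7:109519180-109519209 (plus), chr4:86857353-86857382 (minus), chr5:115559452-115559481 (plus), chr17:33824548-33824577 (minus) and chrX:74270801-74270830 (plus), in the order of the lines.
Rpl7a: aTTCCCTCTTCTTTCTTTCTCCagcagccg
Rpl27a: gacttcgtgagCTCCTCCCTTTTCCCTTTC
Rps6: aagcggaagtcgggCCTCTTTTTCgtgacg
Rplp0: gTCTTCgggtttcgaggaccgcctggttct
Rps28: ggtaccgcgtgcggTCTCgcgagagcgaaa
Rpl10: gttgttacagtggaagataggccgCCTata
The runs were 21 bases long in Rpl7a, 19 in Rpl27a and 10 in Rps6, but 5 in Rplp0, 4 in Rps28 and 3 in Rpl10. Rps3, which also has a large difference below and whose window is not shown, had a run of 3. An annotated start can lie some bases from the start in use, so a window with no long run says only that these letters are not in it.

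The 80 genes gave 2923865 of 19433536 UMIs in the kept cells, or 15.05%. By library, the share was 14.4% of UMIs in the running library (95% exact binomial interval 14.35 to 14.40), 14.1% in the sedentary library (14.06 to 14.12) and 16.2% in the untreated library (16.19 to 16.24). The running and sedentary libraries were thus close together and the untreated library higher, with differences of -1.84 percentage points for running minus untreated and -2.13 for sedentary minus untreated. The untreated library also held more vein-like cells. Within the vessel classes the differences were smaller, -0.579 and -0.377 points in artery-like, -0.241 and -0.797 in vein-like and -0.946 and -0.925 in capillary-like cells, in the same order.

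Vein-like cells stood further above artery-like and capillary-like cells than any library stood above another, and artery-like cells stood a little above capillary-like ones. In vein-like cells the ribosomal protein share was 19.8% in the running, 19.2% in the sedentary and 20.002% in the untreated library, from 251, 261 and 1001 cells. In artery-like cells it was 14.3%, 14.5% and 14.9%, from 584, 739 and 1517 cells, and in capillary-like cells 13.0%, 13.0% and 13.9%, from 2249, 2936 and 1672 cells, each in the same library order. The lowest vein-like share lay above the highest artery-like share, and the lowest artery-like share above the highest capillary-like share, so the 3 classes did not overlap. Within libraries, vein-like exceeded capillary-like cells by 6.78, 6.20 and 6.08 percentage points (mean 6.35 ± 0.38, SD, n = 3 libraries) and artery-like exceeded capillary-like cells by 1.36, 1.54 and 0.995 points (mean 1.30 ± 0.28). The artery-like minus vein-like difference was -5.05 ± 0.38 points.

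Single cells showed the same order with wide overlap. The median vein-like cell had 18.8%, 18.5% and 19.2% of its UMIs in these genes in the running, sedentary and untreated libraries, with the central quartiles of the running cells at 15.6 to 22.4%. The median capillary-like cell had 11.9%, 11.8% and 13.3%, and the median artery-like cell 13.8%, 13.9% and 14.3%. Of the small classes, lymphatic-like cells had 17.5%, 17.2% and 18.1% (44, 10 and 27 cells), pericyte-like cells 14.3%, 12.5% and 13.7% (28, 9 and 35 cells) and the unnamed clusters 17.9%, 15.4% and 17.4%. Erythrocyte-like cells, marked by globin mRNA, had 5.84% and 5.22% in the running and sedentary libraries and 15.9% in the untreated library, from 11, 13 and 5 cells. The summed level of the 5 erythrocyte markers in those few cells was 581993, 642558 and 111506 CPM (counts of the list scaled to 1000000 UMIs of the class).

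**Figure D1:**
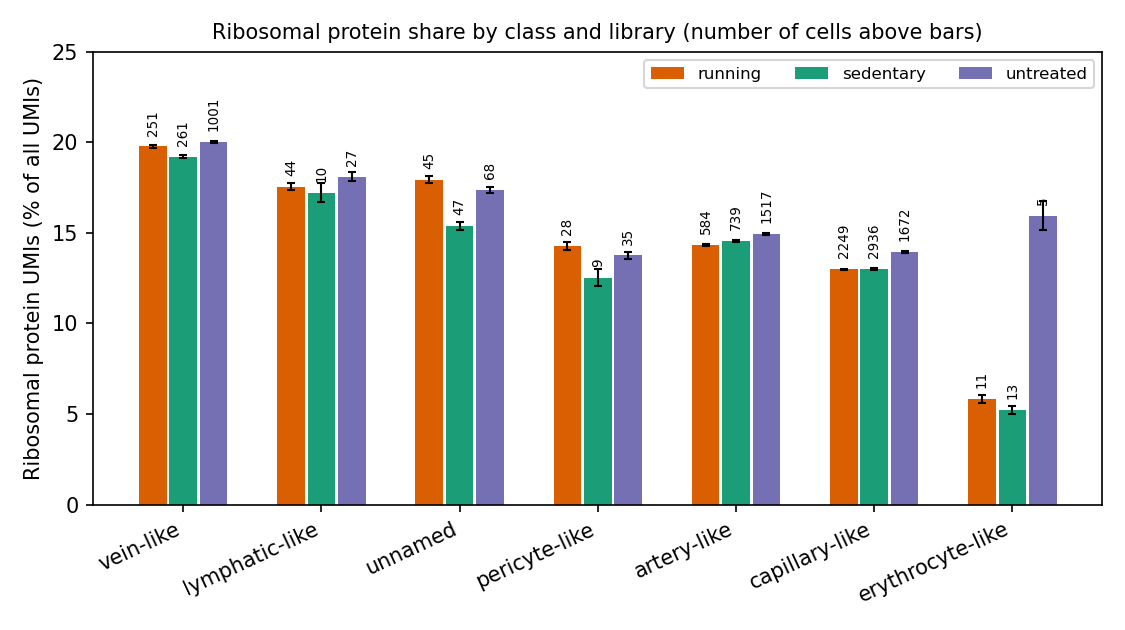
Share of UMIs in the 80 ribosomal protein genes (y axis, %) for each vessel class (x axis) and library, as bars from 0 for the summed UMIs with exact 95% intervals and the number of cells above each bar. Vein-like cells stand at 19.2% or more in the 3 libraries, artery-like cells at 14.3 to 14.9% and capillary-like cells at 13.0 to 13.9%.

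Depth per cell moved with class and share. Median UMIs per cell were 2944, 2480 and 2184 in vein-like, 1907.5, 1568 and 1618 in artery-like and 1317, 905 and 1334 in capillary-like cells of the running, sedentary and untreated libraries. Within every class and library the share was lower in cells under 1000 UMIs than in those with 2000 to 4000. In cells with 1000 or more but under 2000 UMIs, vein-like cells still had 17.2%, 18.3% and 17.7%, artery-like cells 13.7%, 14.4% and 14.5%, and capillary-like cells 13.0%, 13.5% and 14.0%. With every cell thinned to 1000 UMIs and shallower cells left out, the shares were 19.3%, 19.1% and 19.6% in vein-like, 14.2%, 14.6% and 14.8% in artery-like and 13.2%, 13.6% and 14.1% in capillary-like cells. Thinning left out 19, 21 and 73 vein-like, 83, 178 and 229 artery-like and 764, 1595 and 468 capillary-like cells. Both views kept the order of the 3 classes within each library. In the few cells with 4000 UMIs or more it turned round for artery-like and capillary-like cells in all 3 libraries. There, artery-like cells had 14.7%, 15.4% and 15.3% (49, 26 and 76 cells) and capillary-like cells 15.6%, 18.3% and 16.3% (42, 21 and 11 cells).

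**Figure D2:**
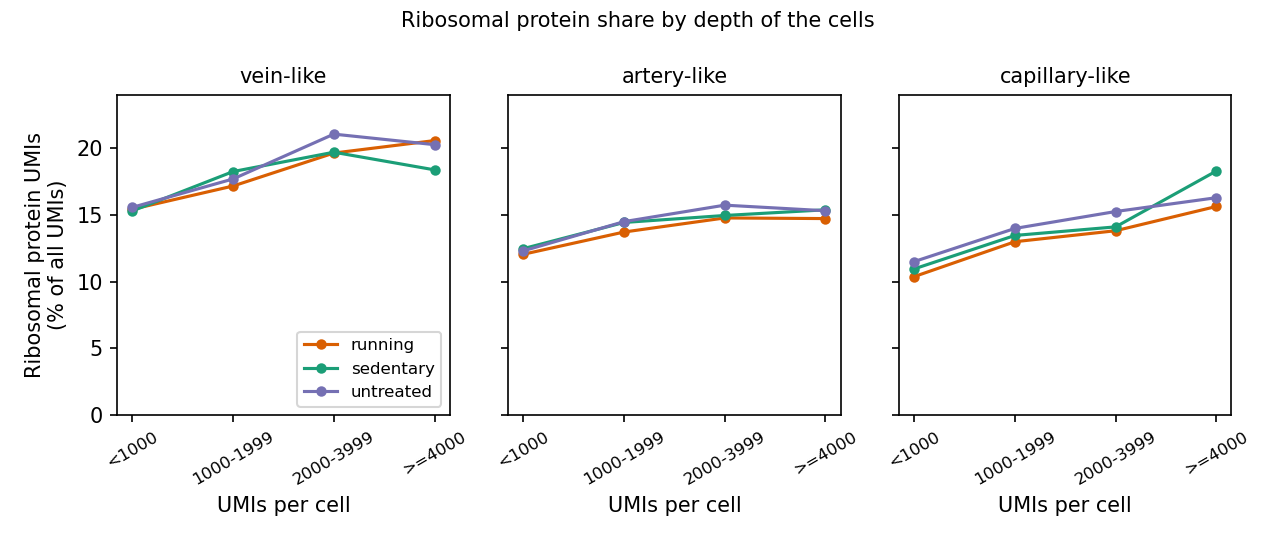
Share of UMIs in the ribosomal protein genes (y axis, %) against the UMI count of the cells (x axis, 4 bins from under 1000 to 4000 and more), by class and library. The share climbs with depth in capillary-like cells, and the vein-like lines lie above those of the other classes in every bin of a library, by least in sedentary cells of 4000 UMIs and more (18.4% in vein-like, 18.3% in capillary-like cells). At that depth the capillary-like points lie above the artery-like ones.

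Other signs of cell state also differed between the classes. Mitochondrial transcripts took 3.62%, 3.81% and 2.94% of UMIs in vein-like and 2.84%, 3.00% and 2.29% in capillary-like cells of the running, sedentary and untreated libraries. Immediate-early genes such as Fos and Jun, which tissue digestion is known to induce, took 1.89%, 1.56% and 2.66% in vein-like and 2.03%, 1.39% and 1.75% in capillary-like cells. Nuclear transcripts (Malat1, Neat1 and Kcnq1ot1) took 2.78%, 2.18% and 3.09% in vein-like and 3.12%, 2.42% and 3.94% in capillary-like cells, lower in vein-like cells of all 3 libraries. The part of depth and of these 3 gene groups in the class difference was not tested. The vein-like class held cluster 4, marked by Selp and Vcam1, and cluster 6, marked by Lrg1 and Ackr1. Cluster 4 had 21.02%, 21.3% and 20.2% of its UMIs in ribosomal protein genes and cluster 6 had 17.5%, 16.8% and 17.8%, so both stood above the artery-like and capillary-like shares of the same library. Cluster 4 held 151 running, 127 sedentary and 869 untreated cells and cluster 6 held 100, 134 and 132, so the vein-like class was made up differently in the untreated library. Immediate-early genes were at 2.79% of UMIs in cluster 4 and 0.489% in cluster 6. The other classes held such clusters too. Immediate-early genes were at 2.91% in artery-like cluster 3 and 0.574% in cluster 5. In capillary-like clusters 0, 1 and 2 they were at 3.03%, 0.595% and 0.575%. The ribosomal protein shares of the largest capillary-like clusters, 0, 1 and 2, were 14.1%, 13.0% and 10.4%. Cluster 2, with a median of 679 UMIs, held 466 running, 1116 sedentary and 181 untreated cells. A high share was not found in vein-like cells alone. The small capillary-like cluster 11 (27, 42 and 10 cells, median 665 UMIs) had 22.1%, 19.0% and 22.1%, with 0.420% nuclear transcripts, and without it, an alternative chosen after seeing the data, the vein-like minus capillary-like difference was 6.40 points.

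Gene by gene, all 80 ribosomal protein genes were higher in vein-like than in capillary-like cells, each of them in 3 of 3 libraries. UMIs were summed per library and class and tested with edgeR's quasi-likelihood test with library as a block, with Benjamini-Hochberg adjustment over all 10943 genes tested, and an adjusted p under 0.05 was called. Of all genes, 12.2% were called higher and 9.03% lower. Of the 409 genes with at least as many UMIs as the lowest member, 165 (40.3%) were called higher and 26.7% lower. The 80 members are among both the 409 and the 165 genes, which raises the share called higher. The members' median log2 fold change was 0.73, against -0.01 over all genes. It was 0.70 for the large and 0.78 for the small subunit, and the 80 values ran from 0.35 to 1.08. Scaled by library totals alone, the all-gene median was -0.17 and the members' median 0.57.

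Levels are given below as CPM of the class in the running, sedentary and untreated libraries. UMIs are counted once per molecule at its 3′ end and were not divided by gene length. The largest difference was that of Rps28, a protein of the head of the small subunit (chr17:33819027-33824562, GRCm38). It had 3664, 3804 and 3808 CPM in vein-like cells, against 1896, 1946 and 2105 CPM in capillary-like cells. No vein-like value came near a capillary-like one, and the log2 fold change was 1.08 ± 0.06 (SE, adjusted p = 3.05e-22). Rpl10 (chrX:74270812-74273135), which joins the large subunit late in its assembly, had 2471, 2147 and 2245 CPM in vein-like and 1293, 1213 and 1227 CPM in capillary-like cells, a log2 fold change of 1.04 ± 0.07 (adjusted p = 2.56e-20).

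The stalk proteins, which recruit translation factors to the large subunit, did not move evenly. Rplp0, the base of the stalk (chr5:115559467-115563727), had 3549, 3258 and 2885 CPM in vein-like cells, against 1858, 1773 and 1727 CPM in capillary-like cells, with a log2 fold change of 1.01 ± 0.06 (adjusted p = 2.79e-20). Its partners rose less, Rplp1 by a log2 fold change of 0.64 and Rplp2 by 0.71, while Rpl12, which sits at the stalk's root, rose by 0.93. Rplp1 had 3184, 3399 and 3388 CPM in vein-like and 2351, 2410 and 2367 CPM in capillary-like cells, groups that did not overlap. Rpl5 and Rpl11, which enter the ribosome together with the 5S RNA and can also hold Mdm2, rose by 0.91 and 0.61. Rpl5 had 741, 628 and 834 CPM in vein-like and 423, 370 and 521 CPM in capillary-like cells, so the classes did not overlap, though the libraries of a class also differed.

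Of the small subunit, Rps6, the substrate of the S6 kinases (chr4:86854660-86857412), had 2484, 2150 and 2106 CPM in vein-like cells, against 1349, 1244 and 1240 CPM in capillary-like cells (log2 fold change 0.97 ± 0.07, adjusted p = 2.26e-19). Rps3 and Rps2, both at the channel through which mRNA enters, rose by 1.01 and 0.74. Rpsa, also known as the laminin receptor precursor, rose by 0.87, and Rps27a, which is made as a fusion with ubiquitin, by 0.72. The X-linked members Rps4x, Rpl36a and Rpl39 rose by 0.86, 0.97 and 0.90. Rpl3, a core protein near the peptidyl transferase centre (chr15:80077791-80091868), rose by 0.94, and Rpl22, an RNA-binding protein of the large subunit, by 0.78.

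The smallest difference was that of Rpl36al, an autosomal relative of the X-linked Rpl36a (chr12:69182731-69184083). It had 392, 453 and 336 CPM in vein-like cells, against 344, 351 and 325 CPM in capillary-like cells, so that the untreated vein-like value lay inside the capillary-like range. Its log2 fold change was 0.35 ± 0.09 (adjusted p = 0.00116). Rpl36a itself had 1600, 1519 and 1283 CPM in vein-like and 927, 841 and 747 CPM in capillary-like cells. Rpl27a, Rpl8 and Rpl27 followed at 0.40, 0.41 and 0.42.

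In artery-like against capillary-like cells only a part of the members was called. Of the 80, 42 were higher (21 of each subunit), 0 were lower and 38 were not called by edgeR. DESeq2 called 26 higher and 0 lower. At an unadjusted p under 0.05, edgeR had 58 members higher and 0 lower. Over all genes 10.7% were called higher and 9.16% lower. Among genes at least as abundant as the lowest member, the members included, these shares were 31.3% and 18.1%. The members' median log2 fold change was 0.18, against -0.004 over all genes, within a range of -0.06 to 0.54, and 66 members were higher in 3 of 3 libraries. The count was unstable. Without the running library 17 members were called, without the sedentary library 12 and without the untreated library 55, and 18 were called without the shallow cluster 2.

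The largest differences were those of Rps27rt, a copy of Rps27 described further on, at 0.54, and of Rpl3 and Rps27. Rpl3 had 1659, 1488 and 1344 CPM in artery-like cells, against 1165, 1061 and 981 CPM in capillary-like cells, and its log2 fold change was 0.53 ± 0.07 (adjusted p = 8.4e-10). Every artery-like value was above every capillary-like one. Rps27, a zinc-binding protein of the small subunit (chr3:90212522-90213651), had 4441, 4864 and 5678 CPM in artery-like and 3277, 3412 and 4338 CPM in capillary-like cells (0.50, adjusted p = 2.05e-10). Rps28 and Rpl13a, known from human cells to leave the ribosome after interferon-gamma signalling, rose by 0.39 and 0.38, Rps6 by 0.36 and Rps3 by 0.33. Rplp0 had 1782, 1832 and 1686 CPM in artery-like and 1858, 1773 and 1727 CPM in capillary-like cells, so the groups overlapped (log2 fold change 0.04, adjusted p = 0.776). Rpl39, which lines the tunnel through which the new chain leaves (chrX:37082520-37085402), had 1193, 1213 and 1605 CPM in artery-like and 1301, 1268 and 1780 CPM in capillary-like cells. It was lower in artery-like cells of all 3 libraries, by -0.06 (adjusted p = 0.592).

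Artery-like cells were lower than vein-like cells for 79 of 80 members and higher for 0, with Rpl36al not called (-0.20, adjusted p = 0.101). Over all genes 13.3% were called lower and 11% higher. Among genes at least as abundant as the lowest member, the members included, these shares were 39.4% and 29.3%. The members' median log2 fold change was -0.53. The lowest values were those of Rplp0, at -0.98 (adjusted p = 1.43e-19), Rpl39, at -0.97 (adjusted p = 3.28e-18), Rpl10, at -0.81, Rpl35 and Rpl36a, both at -0.79. Rpl39 had 2352, 2262 and 2597 CPM in vein-like cells, so its artery-like values were all lower. Nearest to 0 among those that fell were Rpl8 at -0.21, lower in 2 of 3 libraries, Rps27rt at -0.24 and Rps27 at -0.28.

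**Figure D3:**
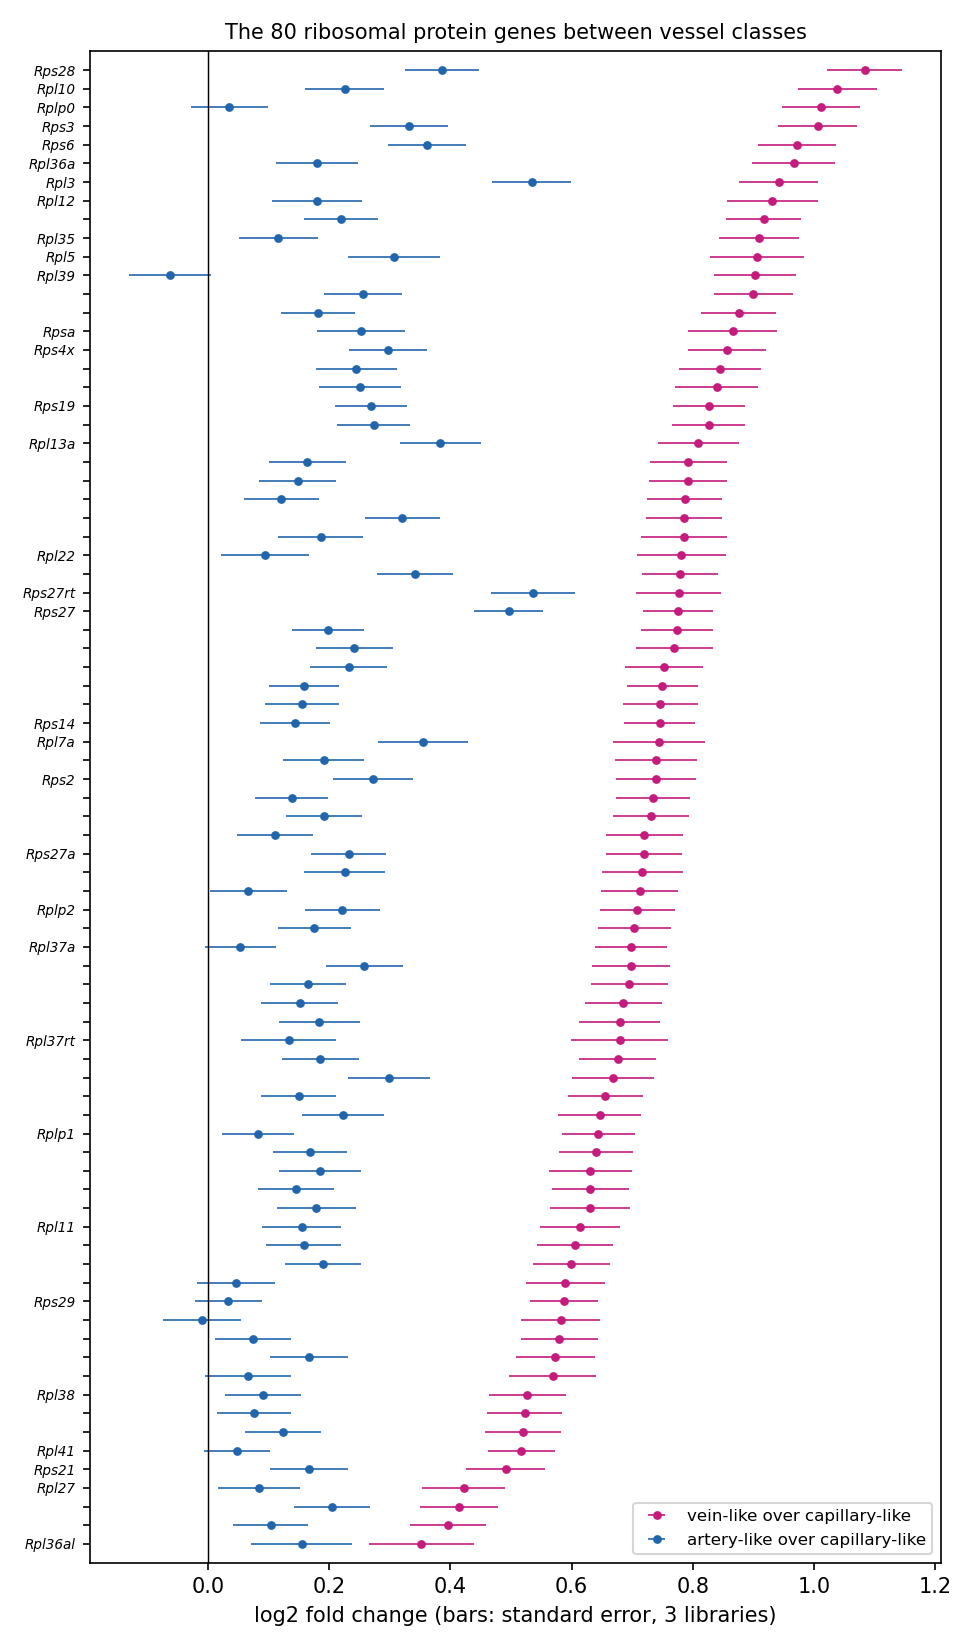
Log2 fold changes (x axis) of the 80 members (1 row each, ordered by the vein-like value) in vein-like and in artery-like against capillary-like cells, as points with standard errors from the edgeR fit over 3 libraries, with a part of the members labelled. All vein-like values lie between 0.35 and 1.08, and the artery-like values between -0.06 and 0.54.

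Levels differed widely between members. In capillary-like cells the mean over the 3 libraries ran from 340 CPM for Rpl36al, 438 CPM for Rpl5 and 483 CPM for Rpl7a to 5347 CPM for Rpl41, the smallest ribosomal protein, and 5195 CPM for Rps29. Rps27 at 3676 CPM, Rps14 at 3368 CPM and Rpl37a at 3254 CPM came next. The SD over libraries was 179 CPM for Rpl41, 304 CPM for Rps29 and 577 CPM for Rps27. These SDs give the spread of each gene, not of the difference between genes counted in the same libraries. Whether neighbours in the order differ was not tested. Rps29 and Rpl41 had log2 fold changes of 0.59 and 0.52 in vein-like and 0.03 and 0.05 in artery-like against capillary-like cells, and the artery-like values were not called.

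Few ribosomal protein genes differed between the running and sedentary libraries by more than the call threshold. A gene with at least 100 UMIs was called where its CPM was at least 25% higher, or lower by the same factor, a log2 ratio past 0.32 or -0.32. In capillary-like cells 0 of 80 members were called higher and 2 lower, the retrocopies Rpl37rt and Rps27rt, and the same 2 were called lower in artery-like and vein-like cells. Among all genes with at least 100 UMIs, 8.9% were higher and 11.8% lower in capillary-like cells, 9.68% and 10.1% in artery-like cells and 11.6% and 12.2% in vein-like cells. Among genes with at least 1000 UMIs, which is nearer to the members' levels, these shares were 5.95% and 6.99% in capillary-like, 3.27% and 4.52% in artery-like and 4.04% and 8.08% in vein-like cells. Members made up 80 of the 1159 such genes in capillary-like, 79 of 398 in artery-like and 78 of 198 in vein-like cells. The members' median log2 ratio was 0.006 in capillary-like, -0.004 in artery-like and 0.05 in vein-like cells. Without the retrocopies the capillary-like values ran from -0.12 to 0.26. The 95% interval lay above 0 for 19 members and below 0 for 14 in capillary-like cells, for 8 and 8 in artery-like cells and for 22 and 3 in vein-like cells, where 56 of 80 ratios were above 0, counting error only.

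The highest capillary-like ratio was that of Rpsa, with 677 CPM in the running and 566 CPM in the sedentary library, a log2 ratio of 0.26 (interval 0.17 to 0.35), and 493 CPM in the untreated library. Rpl5 followed at 0.19 and Rps2 at 0.17 (interval 0.11 to 0.22), and Rpl36a and Rpl3 stood at 0.14. At the other end stood Rpl27 at -0.12, Rpl37a at -0.11 and Rps21 and Rpl38 at -0.10. None of these was called, and the spread between animals is not known from 1 library per group.

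**Figure D4:**
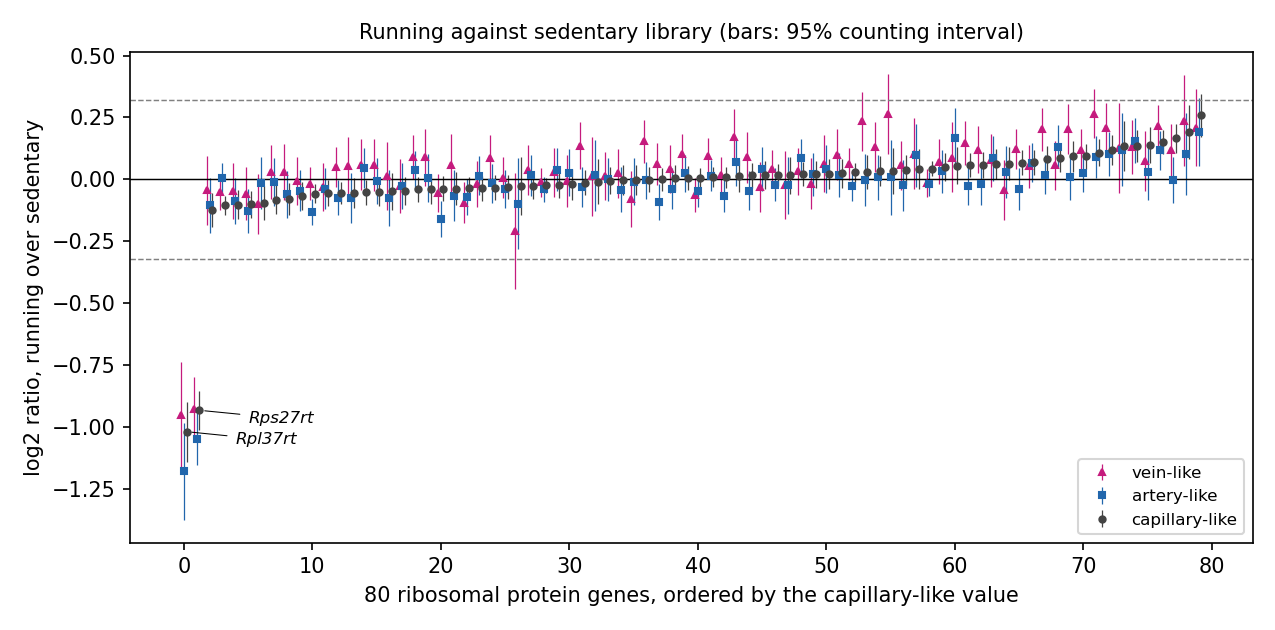
Log2 ratio of running to sedentary CPM (y axis) for each of the 80 members (x axis, ordered by the capillary-like value) in vein-like, artery-like and capillary-like cells, with exact 95% intervals and dashed lines at the call threshold of 0.32 either way. In capillary-like cells the retrocopies Rpl37rt and Rps27rt lie at -1.02 and -0.93, and the other members between -0.12 and 0.26.

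By share, the running library stood 0.287 percentage points above the sedentary library over all kept cells. Within classes, it stood 0.557 points above in vein-like, 0.202 points under in artery-like and 0.020 points under in capillary-like cells, and within the capillary-like clusters 0, 1 and 2 it had 13.7%, 12.3% and 9.99%, against 14.4%, 13.1% and 10.4% in the sedentary library. The running library was thus lower within each of those clusters while the class shares were nearly equal. It held fewer of its cells in the low-share cluster 2. With all cells thinned to 1000 UMIs the running library stood 0.306 points under the sedentary library. Erythrocyte markers summed to 677 CPM in running and 996 CPM in sedentary capillary-like cells, and muscle fibre markers to 153 and 75.1 CPM, and their part in these differences was not tested.

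Against the untreated library, which both other libraries share as comparison, more members differed. In capillary-like cells, running cells had 2 members called higher and 15 lower, where 25.2% of all genes were higher and 16.6% lower. Sedentary cells had 1 member higher and 11 lower, where 26.6% of all genes were higher and 15.3% lower. The members' median log2 ratio was -0.08 in both, against 0.06 and 0.09 over all genes. The counts depend on the scaling. With TMM in place of library totals, 2 members were higher and 23 lower in running and 0 higher and 22 lower in sedentary capillary-like cells, with members' medians of -0.17 and -0.18 against -0.03 and -0.01 over all genes. In artery-like cells 2 members were higher and 8 lower in running (22.4% and 19.2% of all genes), and 2 and 5 in sedentary cells (22.6% and 19.6%). In vein-like cells these counts were 3 and 7 in running (23% and 25.7% of all genes) and 3 and 8 in sedentary cells (25.4% and 27.3%). Erythrocyte markers moved with this comparison. They summed to 677 and 996 CPM in running and sedentary against 128 CPM in untreated capillary-like cells, to 601 and 870 against 19.4 CPM in artery-like and to 610 and 770 against 28.1 CPM in vein-like cells. All 5 markers were detected except Alas2 in the untreated classes and sedentary vein-like cells, and Hbb-bt in untreated vein-like cells, and their part in the result was not tested.

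Rps21, a small protein of the small subunit (chr2:180257377-180258445), had 1302 and 1398 CPM in running and sedentary capillary-like cells, against 2172 CPM in untreated ones, log2 ratios of -0.74 and -0.64. Rpl39 had 1301 and 1268 CPM, against 1780 CPM, and Rpl22 567 and 571 CPM, against 797 CPM. For all 3 genes the running and sedentary values lay close together and the untreated value apart. Rpl5 was lower in running and sedentary cells too, at -0.30 and -0.49. In the other direction, Rpsa was higher by 0.46 in running and 0.20 in sedentary cells and Rps2 by 0.46 and 0.30. Rpl13a had 1088 and 1150 CPM in running and sedentary cells, against 899 CPM in untreated cells (0.28 and 0.36), and Rps19 was at 0.26 and 0.25.

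The clearest difference between running and sedentary libraries lay in genes that repeat another member's sequence. Rps27rt is a retrocopy of Rps27, an mRNA copied back into the genome, at chr9:114982366-114982739 (GRCm38, minus strand), and Rpl37rt is a retrocopy of Rpl37 at chr5:115102923-115110268 (minus strand). The coding sequences of Rps27rt and Rps27 were identical over 252 bases, and the aligned transcripts over 341 bases. Rpl37rt and Rpl37 were identical in 290 of 291 coding bases, with the single difference G249A, counted from base 1 of the coding sequence, the base of Rpl37 first. The last 90 coding bases of each pair are shown, since the reads of a 3′ library fall near them, and the capital letter marks the base that differs. They lie in Rps27 (chr3:90212522-90213651, minus strand) and Rpl37 (chr15:5116645-5119140, plus strand) and in the retrocopies just named.
Rps27: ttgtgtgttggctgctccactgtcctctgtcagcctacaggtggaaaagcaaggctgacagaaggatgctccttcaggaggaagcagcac
Rps27rt: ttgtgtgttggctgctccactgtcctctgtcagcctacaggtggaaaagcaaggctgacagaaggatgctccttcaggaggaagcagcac
Rpl37: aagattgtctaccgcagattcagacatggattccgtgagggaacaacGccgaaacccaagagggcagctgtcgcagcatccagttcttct
Rpl37rt: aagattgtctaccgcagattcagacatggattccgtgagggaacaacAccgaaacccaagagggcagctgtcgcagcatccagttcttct
A read that lies wholly within such a stretch matches both genes of the pair alike, apart from the base of the Rpl37 pair that differs, and the sources used here do not give how such reads were assigned. The counts of each gene in these pairs are therefore uncertain, and so is what a difference between them measures.

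In capillary-like cells Rps27rt stood at 603 CPM in the running, at 1151 CPM in the sedentary and at 997 CPM in the untreated library. The running library was lowest, and the log2 ratio to the sedentary library was -0.93 (interval -1.01 to -0.86). In artery-like cells it had 835, 1728 and 1315 CPM and in vein-like cells 976, 1858 and 1387 CPM, with ratios to the sedentary library of -1.05 and -0.93. Rpl37rt had 236, 478 and 776 CPM in capillary-like, 242, 547 and 783 CPM in artery-like and 364, 704 and 1035 CPM in vein-like cells. It was lowest in the running and highest in the untreated library in each class, and its running to sedentary log2 ratios were -1.02 (interval -1.14 to -0.90), -1.18 and -0.95. Within each of clusters 0 to 8 both retrocopies were lower in the running library, Rpl37rt by -0.42 to -1.32 and Rps27rt by -0.66 to -1.22.

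The source genes did not change by as much. Rps27 had 3277 and 3412 CPM in running and sedentary capillary-like cells and Rpl37 had 2337 and 2428 CPM. Of the UMIs of Rps27 and Rps27rt together, the retrocopy took 15.5%, 25.2% and 18.7% in running, sedentary and untreated capillary-like cells, 15.8%, 26.2% and 18.8% in artery-like and 15.8%, 26.0% and 17.9% in vein-like cells. For Rpl37rt of its pair these shares were 9.17%, 16.5% and 24.6% in capillary-like, 8.68%, 17.0% and 23.4% in artery-like and 9.31%, 17.1% and 23.1% in vein-like cells. The shares differed between libraries and little between the classes of a library. The sum of both genes of a pair differed less between running and sedentary cells, by -0.23 for the Rps27 pair and -0.18 for the Rpl37 pair in capillary-like cells on the log2 scale. These values were -0.321 and -0.212 in artery-like and -0.205 and -0.078 in vein-like cells.

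**Figure D5:**
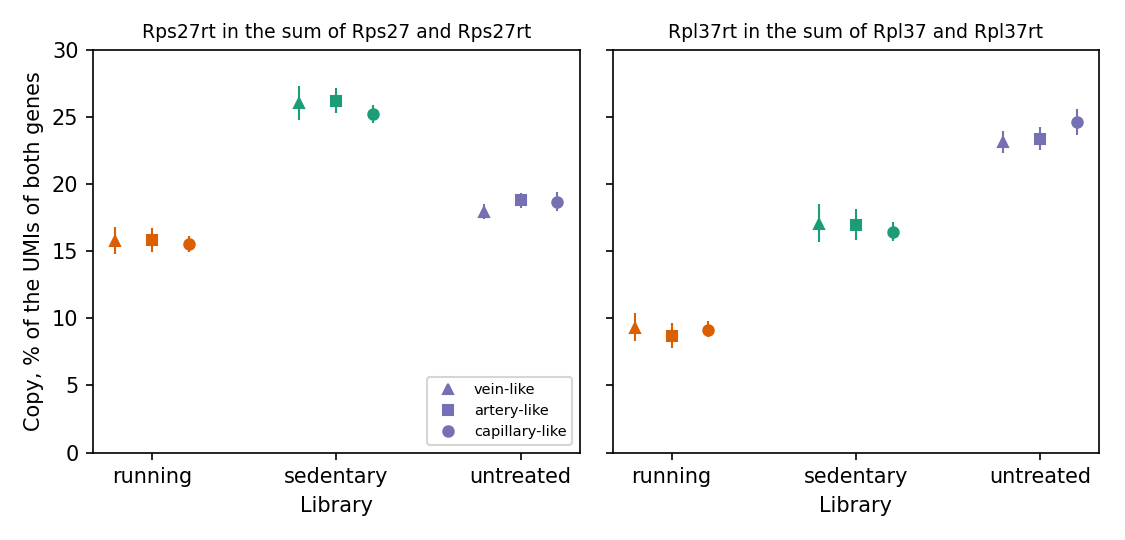
Share of the retrocopy in the UMIs of gene and retrocopy together (y axis, %), for Rps27rt and Rpl37rt in each class and library, with exact 95% intervals. Rps27rt takes 15.5 to 15.8% in the running library and 25.2 to 26.2% in the sedentary library, with the classes of a library close together.

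Near-identical rows were common. Of the 80 members, 26 had another row in the table that matched a stretch of at least 98 bases of their transcript's last 300 bases at 98% identity or more, 33 such copies in all. Rpl37rt is among the 26, with Rpl37 as its copy, but Rpl37 is not, so the count misses copies that match outside those bases. The pseudogene rows and copies that are not members came to 33 rows. Over all kept cells, 22 reached 100 UMIs in running and sedentary cells together, and of these 11 were called lower and 0 higher in running cells, where 9.77% of all genes were lower and 8.86% higher. Against the untreated library, running cells had 15 of 24 lower and 2 higher (16.7% and 25.4% of all genes), and sedentary cells 13 of 24 lower and 4 higher (16.9% and 25.7%). Single rows went different ways. Rps2-ps10 had 118 CPM in the running, 234.8 CPM in the sedentary and 118 CPM in the untreated library, Rpl13a-ps1 had 20.8, 17.4 and 91.8 CPM, and Gm10076, a copy of Rpl41, had 1823, 1564 and 744 CPM. Rpl5, Rpl36a, Rpl39, Rplp1, Rplp2, Rpl10 and Rps2, named above, are among the members with such a copy. The 14 pseudogene rows together held 41073 UMIs, 1.40% of the members' UMIs, so they weigh little in the share.

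Of the relatives that the rule left out, 4 were measured between classes, with median log2 values of 0.05 in vein-like and 0.23 in artery-like against capillary-like cells. The 8 named genes held 18262 UMIs, 0.625% of the members' UMIs, led by Rpl22l1 with 8049 and Rps27l with 7129. Rpl22l1, the paralogue of Rpl22, had 516, 508 and 491 CPM in artery-like cells and 394, 347 and 370 CPM in vein-like cells, against 387, 333 and 373 CPM in capillary-like cells. It was thus highest in artery-like cells in all 3 libraries, with a log2 value of 0.52 against capillary-like and 0.34 against vein-like cells, where Rpl22 stood at 0.09 and -0.69. Rps4l was at 0.65 and Rps27l, known from human cells as a target of p53, at -0.27 in artery-like against vein-like cells. These genes and the translation genes below were in the matrix from which the clusters were made, so the edgeR calls made on them between classes are not independent of how the classes were made. Such calls, at an adjusted p under 0.05, are given as a description, to be read against the 12.2% of all genes called higher and 9.03% called lower in vein-like, and 10.7% and 9.16% in artery-like, against capillary-like cells.

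Other genes with TOP mRNAs, most of them translation factors, were mostly higher in vein-like cells too. Of 19 measured, 19 were called higher in vein-like against capillary-like cells, with a median log2 value of 0.64, where all genes stood at -0.01. Eef1a1, which brings the aminoacyl-tRNA to the ribosome, had 4329, 3795 and 4612 CPM in vein-like and 2527, 2386 and 2930 CPM in capillary-like cells. Its value was 0.86, that of its exchange factor subunit Eef1b2 0.97 and the lowest, Btf3, 0.30. In artery-like against capillary-like cells 9 of 19 were called higher, with a median of 0.22, led by Eef1g at 0.42 and Eef2, the translocation factor, at 0.33. In artery-like against vein-like cells the median was -0.41, with 18 of 19 called lower (13.3% of all genes).

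Genes for making ribosomes gave few calls, and how they differ from the members was not tested. Of 36 ribosome biogenesis genes, 2 were called higher and 0 lower in vein-like against capillary-like cells, with a median of 0.10. Those were Tsr1, a factor of small subunit maturation, at 1.496 and the nucleolar GTPase Gnl3 at 0.50. Tsr1 rested on few UMIs, with 10.0, 10.7 and 2.52 CPM in vein-like and 3.79, 3.79 and 0.850 CPM in capillary-like cells. Of 33 initiation factor genes, 7 were higher and 2 lower with a median of 0.05, led by the eIF3 subunits Eif3i at 0.71 and Eif3l at 0.60. Of 77 mitochondrial ribosomal protein genes, 2 were higher and 5 lower, with a median of -0.03. In artery-like against capillary-like cells, 0 and 2 biogenesis, 3 and 0 initiation and 7 and 0 mitochondrial ribosome genes were higher and lower, with medians of -0.08, 0.10 and 0.04.

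Of 17 genes that signal to ribosome production, 3 were called higher and 1 lower in vein-like against capillary-like cells, close to the share over all genes. Myc, the transcription factor known to drive ribosomal protein and ribosomal RNA genes, had 32.6, 35.1 and 21.8 CPM in vein-like cells, against 7.86, 5.24 and 5.10 CPM in capillary-like cells, a log2 value of 2.42. Its artery-like levels were 2.36, 0.779 and 1.41 CPM, lower than in both other classes in all 3 libraries. The Myc levels rest on few UMIs in each class, fewest in artery-like cells. Its relative Mycn went the other way, with 8.79, 7.62 and 8.81 CPM in vein-like and 13.4, 10.9 and 8.49 CPM in artery-like cells, against 46.6, 25.6 and 19.1 CPM in capillary-like cells. Both are low genes beside the members, and whether they bear on the members' levels was not tested.

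Between running and sedentary capillary-like cells, the translation genes were close to even. Of 19 TOP genes 0 were called higher and 1 lower, with a median log2 ratio of 0.05. Over all genes 8.9% were called higher and 11.8% lower. Of 29 biogenesis genes 5 were higher and 3 lower, with a median of 0.14, led by Rrs1 at 0.70 and Nop58 at 0.49, and of 72 mitochondrial ribosome genes 2 were higher and 2 lower. Mycn was at 0.86 (interval 0.478 to 1.255). Against the untreated library, 13 of 25 biogenesis genes were higher and 1 lower in running and 12 of 25 higher and 3 lower in sedentary capillary-like cells, with medians of 0.41 and 0.26. Over all genes 25.2% were higher and 16.6% lower in running and 26.6% and 15.3% in sedentary cells.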

How the data were processed

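The matrices hold raw UMI counts as deposited, 1 row per gene and 1 column per barcode, from 10x Chromium 3′ version 2 libraries per the labels' protocols, made with Cell Ranger 2.0.2 on GRCm38.p5 per the submitters' processing notes. Neither the annotation release nor the cell calling was given in the sources used here. The 3 libraries held 3260 running, 4079 sedentary and 4376 untreated barcodes with 5983685, 5625068 and 8002866 UMIs. Barcodes with at least 300 genes and at most 10% mitochondrial UMIs were kept, and 2 of 11554 (0.0173%) that Scrublet marked were left out, so doublets were in effect not removed.

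Counts scaled to 10000 per cell were log-transformed and clustered in scanpy 1.11.5 (2000 variable genes, 30 components, 15 neighbours, Leiden resolution 1) without the 80 members and without integration. Clusters were named from marker lists by centred mean level, with score limits set after the data were seen.

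UMIs were summed per library and class. The 9 sums of 3 libraries and 3 vessel classes were tested with edgeR 4.0.16 in R 4.3.3 (quasi-likelihood, TMM, filterByExpr, library as block, Benjamini-Hochberg over 10943 genes, threshold 0.05). The p-values measure only how the class differences vary between the 3 libraries, since the block takes out differences between the libraries themselves. On simulated counts for vein-like against capillary-like sums of 10697 genes, the test found 50 of 50 genes raised 2-fold, 47 of 50 lowered to 0.5, 9 of 50 raised by 25% and 6 of 50 lowered to 0.8, with 2 false calls. Library ratios are log2 ratios of CPM with a prior count of 0.5 and exact 95% Poisson intervals, called past 0.32 either way among genes with at least 100 UMIs. Intervals cover counting error only.

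Gene positions and transcripts came from GENCODE M21, start windows from RefSeq (GRCm38.p6), and copies from BLAST 2.17.0. The members, lists, markers and tests were chosen with earlier results of these data known. Genes were named by a rule: the highest and lowest members by level, library ratio and class fold change, members fixed by role, the paralogs, and the 2 highest and 2 lowest genes of each translation list, of which the text gives a part, since some single-gene results are not reported here. Rpl8, Rpl27a, the single pseudogene and copy rows and the genes whose start windows are shown were chosen after their values were seen. Alternatives were other cell filters, cluster settings, scalings, thresholds, DESeq2 1.42.0, thinning and leaving out each library.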

Additional observations from a re-analysis of the deposited data

Results flagged for a closer look

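The running library's share of UMIs in ribosomal protein genes stood above the sedentary library's in vein-like cells, by 0.557 percentage points, and under it in artery-like cells, by -0.202 points. The result stands out because the sign differed between the classes, and the difference between them was not tested. Within the vein-like class, cluster 4 had 21.02% in the running and 21.3% in the sedentary library and cluster 6 had 17.5% and 16.8%, so the sign also differed between the clusters of this class. Cluster 4 held 151 running and 127 sedentary cells and cluster 6 held 100 and 134.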

How the results depend on the processing

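All results between classes kept their direction under all alternatives run, and vein-like against capillary-like (79 to 80 members higher) and artery-like against vein-like cells (77 to 80 lower) held without each library. No paired analysis was possible between groups because each had 1 library. Without the library block between classes, 75 members were higher in vein-like and 1 in artery-like against capillary-like cells, and 62 were lower in artery-like against vein-like cells.

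The running minus sedentary share turned round with at least 500 genes per cell (-0.0865 percentage points) and with thinning to 1000 UMIs (-0.306), and was 0.150 as a median over cells and 0.233 with pseudogene rows. Running minus untreated was -1.80 with at most 5% mitochondrial UMIs, -2.03 as a median, -1.72 thinned and -1.93 with pseudogene rows. Sedentary minus untreated was -1.79 with 500 genes, -2.06 with 5% mitochondrial UMIs, -2.18 as a median and -1.41 thinned.

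Artery-like minus capillary-like was 1.70 as a median, 0.906 thinned, 0.976 at Leiden resolution 0.5 and 0.858 without cluster 2, an alternative chosen after seeing the data, and 1.18 to 1.45 without a library. Vein-like minus capillary-like was 5.72 thinned, 6.76 with clusters made with all genes, 6.95 and 6.77 at resolutions 0.5 and 2, 5.91 without cluster 2 and 6.14 to 6.49 without a library. Artery-like minus vein-like was -5.56 with all genes, -5.97 and -5.44 at resolutions 0.5 and 2 and -5.25 to -4.87 without a library.

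Of the 42 members higher in artery-like against capillary-like cells, the count was 26 with DESeq2, 22 and 23 at resolutions 0.5 and 2, 17 thinned, 18 without cluster 2 and 12 to 55 without a library. Running against untreated gave 23 lower with TMM, and 0 higher and 3 lower at 1.5-fold. Sedentary against untreated gave 0 higher and 22 lower with TMM, 0 and 2 at 1.5-fold, 0 and 19 with all genes, and 2 and 6 both thinned and without cluster 2. The causes were not tested. For single genes, 2441 values kept their call or size, 145 moved, 55 lost and 11 gained a call and 0 turned round.

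A library without replicate gives no spread between animals, and depth limits members under about 100 UMIs in the small classes.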
